A study of Mus musculus with 7 samples.

Results

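HDAC1 peaks of the E11.5 mouse limb bud were examined at 93 nuclear genes of the respiratory chain and ATP synthase, chosen by symbol. The members were the protein-coding genes of the GENCODE M21 annotation (mm10) whose symbols begin with Nduf, Uqcr, Cox4 to Cox8 or Atp5, or are Sdha, Sdhb, Sdhc or Sdhd, out of 21827 protein-coding genes in all. The choice used the gene symbol alone and no binding value. A member was counted as having a promoter peak when at least 1 bp of a peak lay between 2 kb upstream and 1 kb downstream of the transcription start site (TSS) of any of its protein-coding transcripts.

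The respiratory chain passes electrons from NADH and succinate to oxygen through 4 complexes of the inner mitochondrial membrane, and ATP synthase, counted as complex V, uses the resulting proton gradient to make ATP. Complex I takes electrons from NADH and complex II from succinate, complex III hands them to cytochrome c, and complex IV passes them to oxygen. A few subunits are made from mitochondrial DNA and all others from nuclear genes, most of which are used in nearly every cell and whose promoters are known for sites of NRF1, of ETS factors such as GABPA, and of YY1. HDAC1 takes acetyl groups off histone tails, a step tied to lower transcription, and is nevertheless known to sit at many active promoters.

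Binding was measured by ChIP-seq with an HDAC1 antibody in 4 samples, beside 3 input samples of chromatin that was not precipitated. All of these came from pooled forelimb and hindlimb buds of wild-type Swiss Webster embryos at E11.5 with 40 to 44 somites, and the labels give 3 litters as the source of each sample. No mutant or treated group was part of the HDAC1 experiment. The authors deposited 1 list for all samples, with the chromosome, start and end of 15347 peaks and no height, read count or false discovery rate for any of them. The list alone therefore gives no value per sample, no replicate error and no depth behind a peak, and shares, lengths and ranks are descriptions without a test. Reads, and values per peak from other sources of the study, were not used here. The row order of the list was read as the rank, and the median length fell from 1050 bp over the first 3837 rows to 250 bp over the last 3836. The list covered 21 chromosomes, held no peak on the mitochondrial chromosome, and had a median peak length of 450 bp. A limb bud holds several cell types, in which strong binding in a few cells and weak binding in many cannot be told apart, and an HDAC1 peak does not identify a cell type, so the tissue label was not checked against markers.

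Of the 93 members, 63 (67.7%) had a promoter peak, against 9619 (44.1%) of all 21827 protein-coding genes, and 30 had none. The share was highest for complex II, in which 4 of 4 genes had a peak (100%), and for complex V with 15 of 17 (88.2%). The place of complex II rested on the setting, since 1 of its 4 genes (25%) had a peak when the peak had to cover a TSS, in the first part of the list cut at its middle, or without peaks shared with another gene, which was the lowest share of the 5 complexes or level with the lowest. Complex III had a peak at 6 of 8 genes (75%) and complex I at 30 of 46 (65.2%). Complex IV had a peak at 8 of 18 genes (44.4%), a share close to that of all genes. Pooled over complexes, the share differed by the role of the subunit. The 12 core subunits of complexes I to III among the members had a peak at 11 genes (91.7%), the F1 head of ATP synthase at 5 of 5 and its peripheral stalk at 4 of 4. The 47 supernumerary subunits of complexes I, III and IV, which surround the cores, had a peak at 29 (61.7%). The core and supernumerary groups draw on different complexes, since all 4 genes of complex II count as core and no member of complex IV does. Within complex I the counts were 6 of 7 core and 17 of 30 supernumerary subunits. At the other end stood the 7 tissue-restricted isoforms of complex IV, none of which had a peak. Shares by role were not recomputed under other settings. Core and supernumerary subunits with a peak had the same median length, 450 bp, and median ranks of 7702 and 6969.

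**Figure D1:**
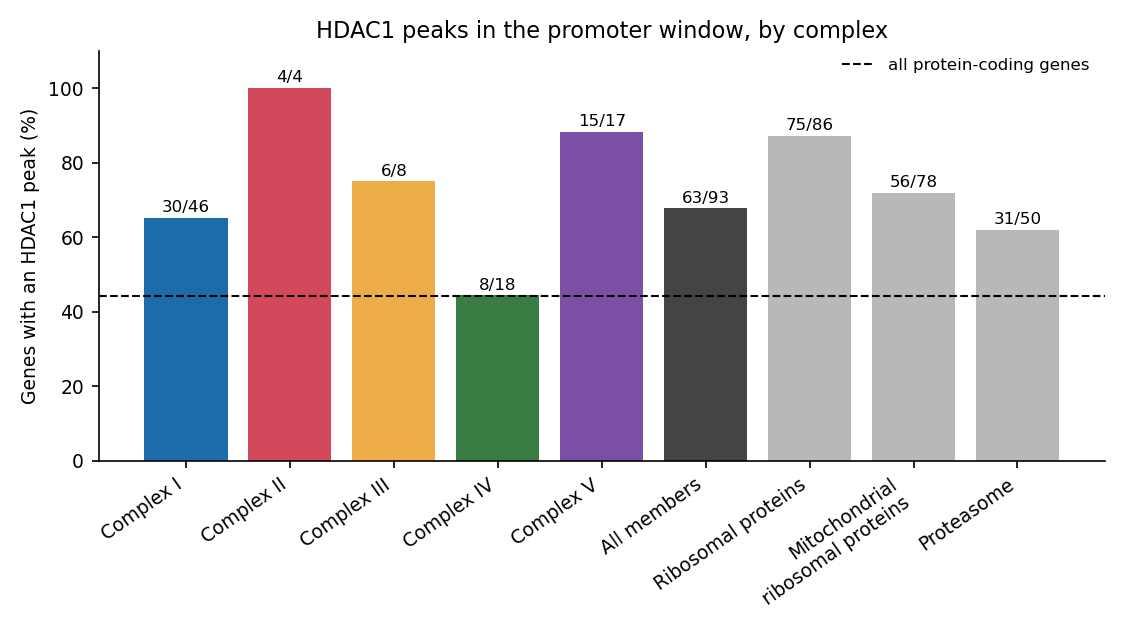
Share of genes with an HDAC1 peak in the promoter window (percent), for each complex, for all 93 members and for 3 other groups of widely used genes, with the number of genes with a peak over the number of genes above each bar. The dashed line marks the 44.1% of all protein-coding genes, which complex IV meets and every other bar passes.

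The upstream sequences show how different these promoters were in composition. The 150 bases before the reference TSS are given for the best-ranked member of each complex in which no more than 9 of these bases lie in an annotated exon of any gene, then for Cox6a1, a member with a peak and NRF1 motifs, and then for 3 members without a peak. The sequences are those of RefSeq for GRCm38.p6, read 5′ to 3′ on the strand of the gene, and capitals mark matches to the NRF1 motif (GCGC, any base, then TGCGC) or to CCGGAAG (ETS), on either strand. The stretches are chr1:92473861-92474010 (minus strand) for Ndufa10, chr4:140961053-140961202 (plus) for Sdhb, chr4:116075072-116075221 (minus) for Uqcrh, chr9:57521129-57521278 (plus) for Cox5a, chr9:44920743-44920892 (minus) for Atp5l and chr5:115348982-115349131 (minus) for Cox6a1.
Ndufa10: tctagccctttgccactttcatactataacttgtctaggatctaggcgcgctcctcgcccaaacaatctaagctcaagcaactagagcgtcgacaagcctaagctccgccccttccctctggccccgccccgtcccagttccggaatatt
Sdhb: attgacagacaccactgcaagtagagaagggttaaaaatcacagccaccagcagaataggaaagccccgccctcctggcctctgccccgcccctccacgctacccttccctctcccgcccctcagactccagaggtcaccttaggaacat
Uqcrh: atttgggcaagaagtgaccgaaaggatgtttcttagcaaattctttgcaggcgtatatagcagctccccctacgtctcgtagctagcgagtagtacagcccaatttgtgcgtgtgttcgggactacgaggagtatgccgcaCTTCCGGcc
Cox5a: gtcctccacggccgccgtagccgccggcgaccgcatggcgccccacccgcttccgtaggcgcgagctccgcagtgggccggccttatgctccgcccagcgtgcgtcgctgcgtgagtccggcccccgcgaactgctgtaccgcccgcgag
Atp5l: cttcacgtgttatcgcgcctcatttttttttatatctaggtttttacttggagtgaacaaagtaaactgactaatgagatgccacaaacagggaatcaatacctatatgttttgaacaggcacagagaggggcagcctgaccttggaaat
Cox6a1: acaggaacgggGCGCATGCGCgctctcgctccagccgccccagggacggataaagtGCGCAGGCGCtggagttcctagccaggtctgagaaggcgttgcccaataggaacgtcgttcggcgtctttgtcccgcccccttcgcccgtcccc
The stretch of Cox5a holds 25 CpG dinucleotides and that of Cox6a1 holds 17, while that of Atp5l, from a gene with a peak at rank 1913, holds 3.

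The members without a peak are Ndufs7, a core subunit of complex I, Cox7c, a widely expressed subunit of complex IV, and Cox8b, an isoform of heart and skeletal muscle. They are read from chr10:80248971-80249120 (plus strand), chr13:86046905-86047054 (minus) and chr7:140900447-140900596 (minus).
Ndufs7: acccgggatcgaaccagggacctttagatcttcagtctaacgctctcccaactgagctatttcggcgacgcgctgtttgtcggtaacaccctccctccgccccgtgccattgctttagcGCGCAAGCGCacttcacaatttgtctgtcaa
Cox7c: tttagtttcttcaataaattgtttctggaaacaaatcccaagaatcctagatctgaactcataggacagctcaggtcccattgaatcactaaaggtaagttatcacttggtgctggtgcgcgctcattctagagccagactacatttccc
Cox8b: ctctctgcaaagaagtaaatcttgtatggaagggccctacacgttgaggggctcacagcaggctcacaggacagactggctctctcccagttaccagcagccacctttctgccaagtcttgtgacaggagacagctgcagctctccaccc
The stretch of Ndufs7 holds 13 CpG dinucleotides and an NRF1 match that begins at position -31 from the TSS. The stretches of Cox7c and Cox8b hold 2 and 1 CpG dinucleotides and no match. These low counts do not stand for all members without a peak, since the same stretch holds 15 at Ndufa1 and at Ndufa7.

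The peaks at the members were shorter and ranked lower than those at genes in general. The longest promoter peak of a member had a median length of 500 bp, with a range from 150 to 1700 bp, against a median of 650 bp over all 9619 genes with a peak. The best rank had a median of 6969, with 246 as the first, against 5180 over all genes with a peak. In the first 3837 rows of the list lay the best peak of 15 of the 63 members (23.8%), against 38.3% of all genes with a peak. In the last 3837 rows (11511 to 15347) these shares were 20.6% and 12.7%. Complexes V and IV had the longest and best-ranked peaks, with median lengths of 750 and 600 bp and median ranks of 5268 and 5588. Complex II, where each gene had a peak, had a median length of 500 bp and the last median rank of the complexes, 9108.5.

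**Figure D2:**
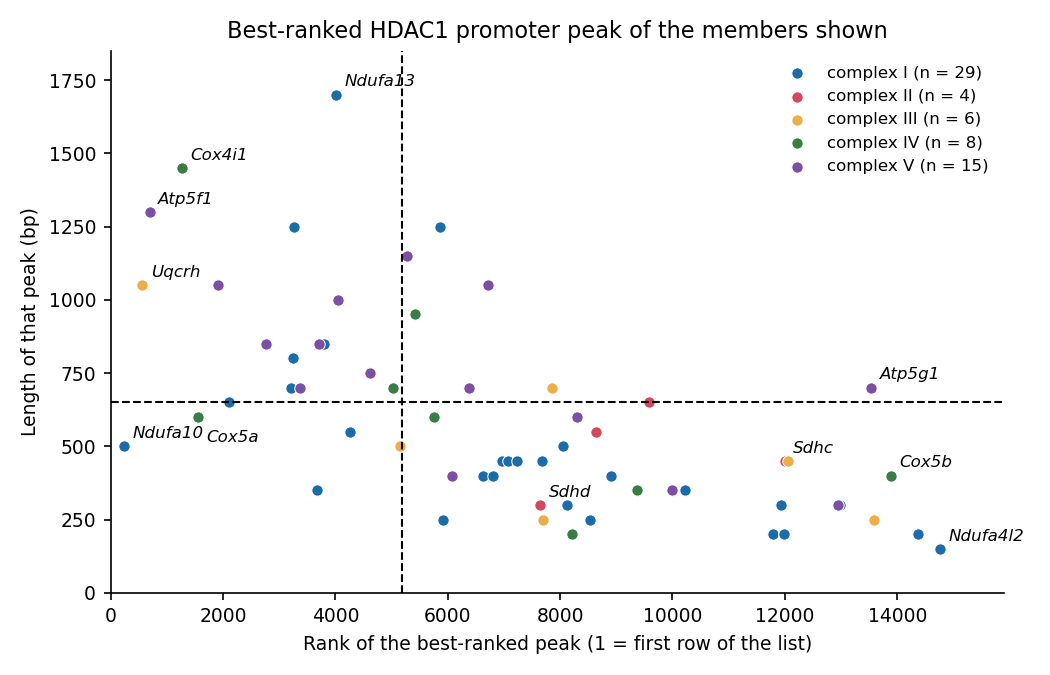
Length (bp) against rank in the list of the best-ranked promoter peak of 62 of the 63 members with a peak, coloured by complex. Dashed lines mark the medians of all genes with a peak, a length of 650 bp (of the longest peak) and a rank of 5180; most members lie to the right of the rank line and below the length line.

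In complex I, the NADH dehydrogenase, Ndufs3 had the best rank of the nuclear core subunits, with a peak of 650 bp at rank 2108. Ndufs1, the large iron-sulfur subunit next to the site of NADH oxidation, had the longest, with 1250 bp at rank 3270, and the same peak reached the promoter of the divergent gene Eef1b2, whose TSS lies 3 bp away. The peak of Ndufv1, which binds FMN and NADH, had 550 bp and rank 4261, and that of Ndufv2, an iron-sulfur subunit beside it, 400 bp and rank 6630. Ndufs8 had a peak of 250 bp at rank 8536, and Ndufs7 had none, with the nearest peak 12579 bp from its TSS.

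Of the 30 supernumerary subunits named for complex I (Ndufa4, now placed in complex IV, included), 17 had a peak (56.7%), where the median length was 450 bp and the median rank 6969. Ndufa10 had the best rank of all 93 members. Its peak at rank 246 (chr1:92473450-92473949, 500 bp) ran from 89 bp upstream to 410 bp downstream of the TSS and took in 89 upstream bases, the 198 bases of the first exon and 213 bases of the first intron. Ndufa13, also known as GRIM-19, had the longest peak of all members, 1700 bp at rank 4012, with a second one of 550 bp at rank 6503, and its peaks reached the promoters of Tssk6 and Yjefn3 as well. Ndufb6 (800 bp, rank 3253), Ndufs5 (350 bp, rank 3664), Ndufb5 (850 bp, rank 3801) and Ndufa11 (1250 bp, rank 5860) followed. At the low end stood Ndufa2, whose peak of 200 bp had rank 14372 and also reached the promoter of the divergent gene Ik.
More than 1 peak was also found at Ndufa4, with ranks 5913 and 8044, and at Ndufab1, the mitochondrial acyl carrier protein, with ranks 6809 and 11683. The 13 supernumerary subunits without a peak were Ndufa1, Ndufa3, Ndufa5, Ndufa7, Ndufa8, Ndufb2, Ndufb4, Ndufb7, Ndufb8, Ndufc1, Ndufc2, Ndufs6 and Ndufv3. The nearest peak to the TSS of Ndufs6 lay 2308 bp away, just beyond the window, while those of Ndufa5 and Ndufb4 lay 136037 and 122747 bp away.

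The assembly factors of complex I, which help build it and are not part of the finished enzyme, had a peak at 6 of 8 genes (75%). They ranged from Ndufaf5, with 700 bp at rank 3212, to Ndufaf6, with 300 bp at rank 11925. Ndufaf3, which works with Ndufaf4 in assembly of the quinone module, had 2 peaks at ranks 9376 and 9944, and Ndufaf4 had 1 at rank 7670. The peaks of Ndufaf5, Ndufaf7 and Ndufaf8 also reached the promoters of Esf1, Cebpz and Tepsin. Ndufaf1 and Ndufaf2 had no peak. Ndufa4l2, a paralog of Ndufa4 known to be induced in hypoxia, had a peak of 150 bp at rank 14765 that ended 1918 bp upstream of its TSS, the farthest of any member with a peak when its nearest peak is taken.

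In complex II, succinate dehydrogenase, Sdha binds FAD, Sdhb carries the iron-sulfur clusters, and Sdhc and Sdhd anchor both in the membrane. Sdhd had the best rank, 7647, with a peak of 300 bp that began 13 bp downstream of the TSS. Sdha had 550 bp at rank 8640, Sdhb 650 bp at rank 9577 and Sdhc 450 bp at rank 11996. All 4 peaks thus lay in a middle to late stretch of the list. The peaks of Sdhd and Sdha also reached the promoters of Timm8b and Ccdc127, and the peak of Sdhb reached no other coding gene.

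Complex III had a wider span. Uqcrh, the hinge protein thought to assist the docking of cytochrome c, had the best-ranked and longest peak, 1050 bp at rank 562. That peak lay wholly upstream of Uqcrh, between positions -1128 and -79 bp from the TSS, and reached the promoter of the divergent gene Lrrc41. A second peak of Uqcrh, which came at rank 10660, had 250 bp. Uqcrq had 500 bp at rank 5151, Uqcrfs1, the Rieske iron-sulfur protein, 250 bp at rank 7702, and Uqcrc2 700 bp at rank 7851. Uqcr11 had rank 12052 and Uqcrb, with 250 bp, rank 13585. Of the large matrix-facing subunits Uqcrc1 and Uqcrc2, then, 1 had a peak and the other did not. Uqcr10, a small membrane subunit, had none either.

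In complex IV, cytochrome c oxidase, the split followed the kind of subunit. Of the 10 widely expressed subunits, 7 had a peak, and the medians were 600 bp for length and 5756 for rank. Cox4i1 had the best-ranked and longest peak of the complex, 1450 bp at rank 1264 (chr8:120667300-120668749), which ran from 922 bp upstream to 527 bp downstream of its TSS and reached the promoter of the divergent gene Emc8. Cox5a followed with 600 bp at rank 1560, and its peak reached no other coding gene. Cox6c had 700 bp at rank 5034, Cox6a1 600 bp at rank 5756 and Cox7a2 200 bp at rank 8204. The last were Cox7b with 350 bp at rank 9374 and Cox5b with 400 bp at rank 13886. Cox7a2l, which joins complexes III and IV in supercomplexes, had 950 bp at rank 5420.

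Several subunits of complex IV exist as a widely expressed gene and an isoform used in few tissues. Of 6 such sets, 4 had a peak at the widely expressed gene only: Cox4i1 and not Cox4i2, the isoform of lung; Cox6a1 and not Cox6a2; Cox7a2 and not Cox7a1, these being isoforms of heart and skeletal muscle; and Cox7b and not Cox7b2, an isoform of testis. In the other 2 sets no gene had a peak, neither Cox6b1 nor the testis isoform Cox6b2, and neither Cox8a nor Cox8b nor the testis isoform Cox8c. None of these 6 sets had a peak at the restricted isoform. The start sites of these restricted isoforms are all CpG-poor as defined below, and 13% of all CpG-poor genes had a peak. Ndufa4 and Ndufa4l2, described above, are not among the sets, and both had a peak. The widely expressed genes without a peak were thus Cox6b1, Cox8a and Cox7c, with nearest peaks 23749, 11067 and 757105 bp from the TSS, and Cox7c stood farther from any peak than every other member. Placing Ndufa4 and Ndufa4l2 in complex IV by their known role gave 10 of 20 genes with a peak (50%), and complex I then had 28 of 44 (63.6%).

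In complex V all 3 parts of ATP synthase had a peak at most of their genes. The peripheral stalk, which holds the F1 head still against the turning rotor, had the best rank. Atp5f1, its subunit b, had 1300 bp at rank 698 (chr3:105958850-105960149), and this peak reached 1249 bp into the gene and the promoter of Wdr77. Atp5j had 700 bp at rank 3363, Atp5h 1150 bp at rank 5268, and Atp5o, the subunit on which oligomycin sensitivity depends, 350 bp at rank 9994. The peak of Atp5j also reached the promoter of Gabpa, the ETS factor named above. In the F1 head, Atp5b, the catalytic subunit beta, had 1000 bp at rank 4054, Atp5c1 peaks at ranks 4615 and 10265, Atp5a1 700 bp at rank 6371, Atp5d 3 peaks at ranks 6722, 7513 and 10154, and Atp5e 300 bp at rank 12940.
The membrane part had a peak at 6 of 7 genes. Subunit c, whose copies form the rotor ring, is made from 3 genes with the same mature protein. Of these, Atp5g2 had peaks at ranks 2766 (850 bp) and 3551 (950 bp) and Atp5g3 a peak of 850 bp at rank 3716, while Atp5g1 had 700 bp at rank 13536, the last of the complex. The other membrane subunits with a peak were Atp5l with 1050 bp at rank 1913, Atp5mpl with 400 bp at rank 6072 and Atp5j2 with 600 bp at rank 8301. Atp5k, subunit e, and Atp5s, a coupling factor outside the main body of the enzyme, had no peak.

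Only peaks that reached the promoter window were counted, and within it nearly all members with a peak had one on or close to the reference TSS. A peak covered the reference TSS in 37 of the 63 members (58.7%), against 64.9% of all genes with a peak. Where no peak covered it, the best-ranked peak lay upstream in 6 members and downstream in 20. The midpoint of the best-ranked peak had a median of 162.5 bp downstream of the TSS (25th to 75th percentile from -51 to 302 bp, with upstream negative), against 197.5 bp over all genes with a peak. The share that covered the TSS was 7 of 8 in complex IV, 19 of 30 in complex I, 8 of 15 in complex V, 2 of 6 in complex III and 1 of 4 in complex II. Apart from Ndufa4l2, the farthest peak from a TSS it did not cover was that of Cox7a2, which began 329 bp downstream.

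**Figure D3:**
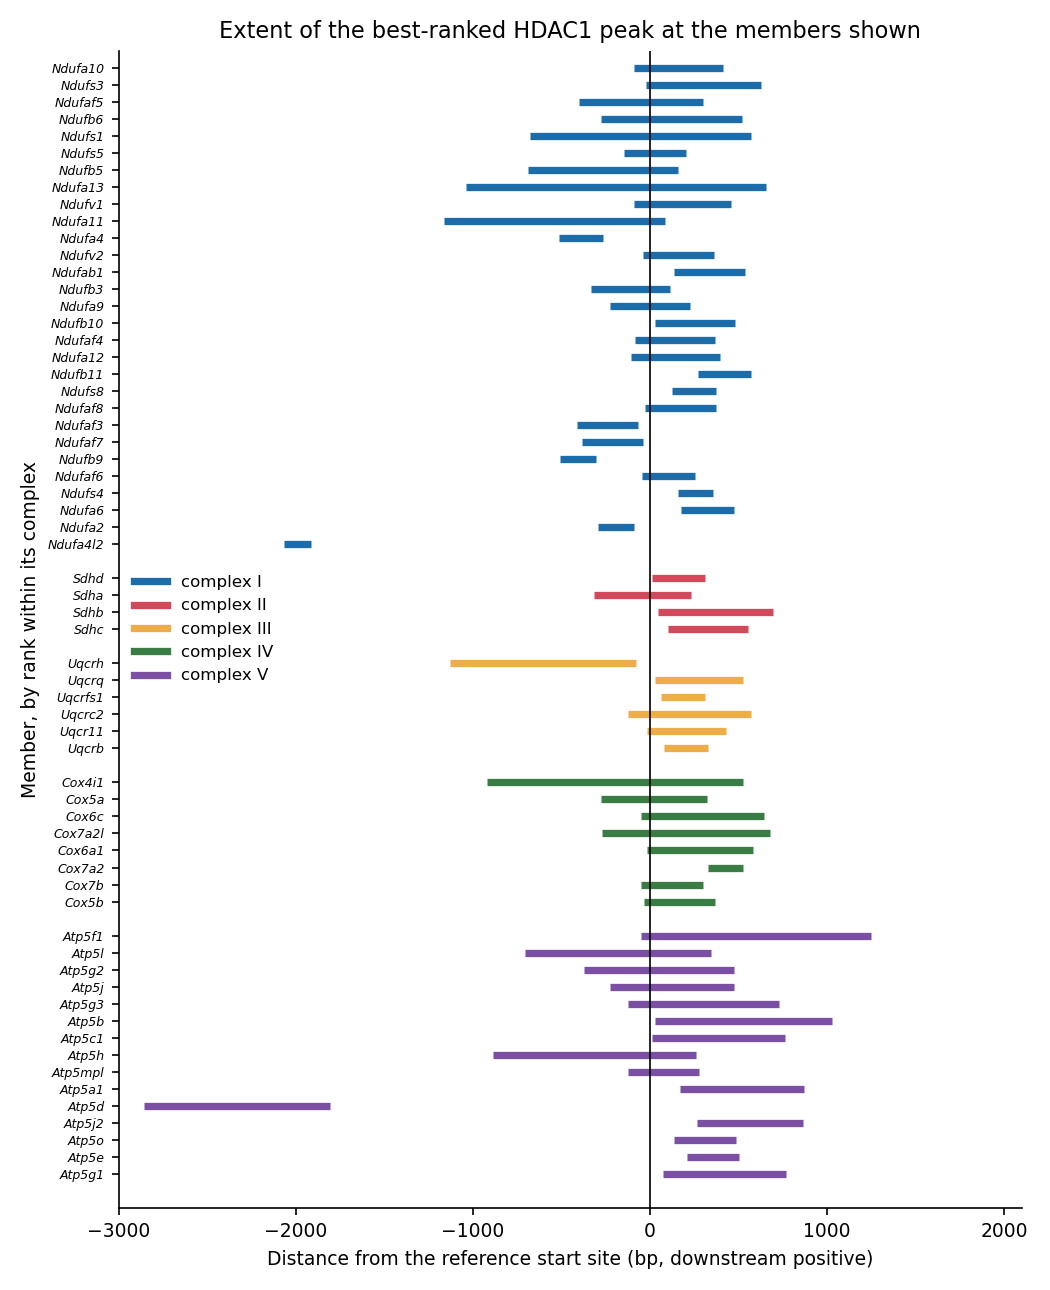
Extent of the best-ranked HDAC1 peak of 62 of the 63 members with a peak, as distance in bp from the reference TSS at 0 with downstream positive, coloured by complex and ordered by rank within it. Bars cluster around and just after 0, and the peaks of Ndufa4l2 and of Atp5d lie apart on the left; that of Atp5d is at the TSS of another transcript, and a further peak of the gene covers 0.

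Set on the reference transcript, the best-ranked peak held bases of the first exon in 49 of the 63 members and intron bases in 50. Coding bases were held in 40 members and upstream bases in 42. A median of 83 bp of the peak lay upstream, 135 bp in exons and 213 bp in introns. The peak lay wholly within introns in 5 members, among them Sdhc, Ndufs8, Cox7a2 and Atp5e, and wholly upstream in 8.

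The 30 members without a promoter peak also had no peak elsewhere in the gene. The nearest peak to the TSS lay at a median of 22183 bp, from 2308 bp at Ndufs6 to 757105 bp at Cox7c. It lay within 10 kb in 6 members, and these were Ndufs6, Ndufa7, Ndufc1, Ndufb8, Ndufv3 and Cox7a1. A gene can bind HDAC1 below the threshold of the peak caller, so the absence of a peak is not an absence of binding, and binding below it was not detectable in the list.

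The comparison with all genes depended on CpG content. Within 500 bp on both sides of the reference TSS, 71 of the 93 members had a GC content of at least 50% and a CpG observed/expected ratio of at least 0.6, called CpG-rich here, and 10062 of the 21827 genes did. Among CpG-rich genes the share with a peak was 73.2% for the members (52 of 71) and 80.4% for all genes. Among the others it was 50% for the members (11 of 22) and 13% for all genes. The members thus stood above all genes over the whole gene set, below them at CpG-rich start sites and above them at CpG-poor ones. The CpG-poor groups were unlike in composition. Their median ratio was 0.485 for the members and 0.243 for all genes, and their median GC content 52.45% and 48.5%. The CpG-rich groups were not matched either. Their median ratio was 0.764 for the members and 0.787 for all genes, and their median GC content 57.1% and 61.8%. At a stricter limit, with a ratio of at least 0.75 and a GC content of at least 55%, the shares at CpG-rich start sites were 89.7% for members (26 of 29) and 90.9% for all genes.

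The 11 CpG-poor members with a peak were Atp5d, Atp5f1, Atp5j2, Cox7b, Ndufa4l2, Ndufb10, Ndufs4, Ndufs5, Ndufs8, Uqcr11 and Uqcrb. Several were near the limit, such as Ndufs8 with a ratio of 0.585 and Ndufs5 with 0.58, but Atp5j2 had a ratio of 0.22 at a GC content of 42.7%, and Atp5f1, at rank 698, a ratio of 0.458. All 7 tissue-restricted isoforms of complex IV were CpG-poor, with ratios from 0.245 at Cox8b to 0.467 at Cox7b2, and no peak was found at them. With these isoforms and Ndufa4l2 left out, 10 of 14 CpG-poor members had a peak (71.4%). Beside it stands 13% of all CpG-poor genes, from which no tissue-restricted genes were left out. This setting was added after seeing the data. In contrast, 19 CpG-rich members had none, among them Ndufa1 with a ratio of 0.844 and Ndufaf2 with 0.784. The median ratio was 0.77 over members with a peak and 0.67 over members without.

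**Figure D4:**
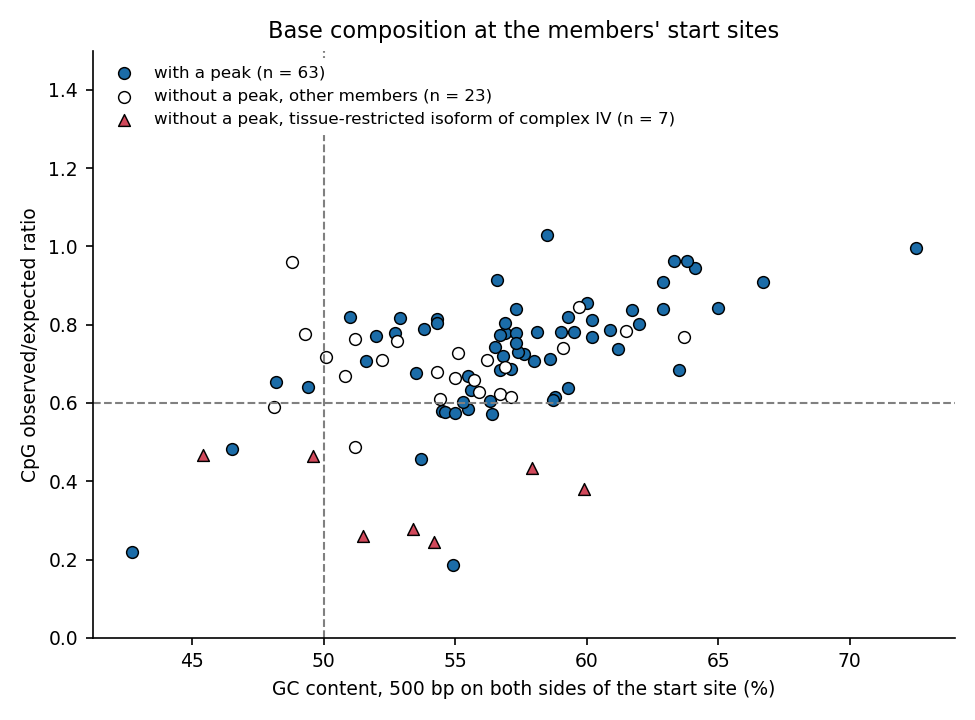
CpG observed/expected ratio against GC content (percent) within 500 bp on both sides of the reference TSS, for the members with a peak (filled circles), the 7 restricted isoforms of complex IV without one (triangles) and the other members without one (open circles). Dashed lines mark the limits of 0.6 and 50%; the triangles all lie below a ratio of 0.6, while open and filled circles mix above it.

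Many members share a promoter region with a neighbour. A coding gene in the opposite direction had its TSS within 1000 bp of that of 24 of the 93 members. Among all 21827 genes, 1758 had such a neighbour. Of the 24 members, 17 had a peak (70.8%), against 80.3% of all genes with such a neighbour. In each of the 17 the peak also lay in the window of the neighbour, which follows from the overlap of their windows, with the start sites 3 to 198 bp apart. The 7 divergent members without a peak were Ndufa1, Ndufa5, Ndufa7, Ndufa8, Ndufaf2, Uqcr10 and Atp5s. Counting neighbours in any direction, 24 of the 63 members with a peak (38.1%) shared a peak with another coding gene, against 22.4% of all genes with a peak, and for these the list does not say to which gene the binding belongs. No peak was shared between 2 members. Without shared peaks, 40 of 93 members (43%) and 34.6% of all genes had a peak. A gene with more than 1 peak was less common among the members with a peak, 8 of 63 (12.7%), than among all genes with a peak (21.4%).

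Motifs of the factors known at these promoters were searched from 250 bp before to 50 bp after the reference TSS, on both strands, and the motifs may overlap each other. The NRF1 motif (GCGC, any base, then TGCGC) was found at 16 members (17.2%), against 6.1% of all genes, the ETS motif CCGGAAG at 17 (18.3%), against 11.2%, and the YY1 motif AAGATGGC at 9 (9.68%), against 3.06%. A larger part of the members is CpG-rich. Among the 71 CpG-rich members and the 10062 CpG-rich genes, the ETS motif was found at 14 and 1900, which are close shares. For NRF1 these counts were 14 and 1182 and for YY1 7 and 493, with the higher share in the members. The members with and without a peak had close shares for NRF1, 17.5% (11 of 63) and 16.7% (5 of 30). For ETS the shares were 20.6% and 13.3%, and for YY1 11.1% and 6.67%, which amounts to 13 and 4 genes for ETS and 7 and 2 genes for YY1. Over all genes, each motif was more common in the 9619 genes with a peak than in the 12208 without. The counts were 1056 and 275 for NRF1, 1679 and 766 for ETS, and 451 and 216 for YY1. At the 11 members with a peak and an NRF1 match, 10 of 14 matches lay inside a peak, as in Sdha with 3 matches that begin at positions -58, -15 and 30 from the TSS. At Cox6a1, shown above, both NRF1 matches lay upstream of the peak, which began 18 bp before the TSS, and an ETS match lay inside it. Of the ETS and YY1 matches at members with a peak, 7 of 15 and 3 of 7 lay inside one. The 5 members with an NRF1 match and no peak were Ndufa8, Ndufb4, Ndufs7, Uqcrc1 and Atp5k.

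Other genes of the pathway were read the same way, from lists of electron carriers, assembly factors, regulators and citric acid cycle enzymes. The list of carriers, which holds genes for making coenzyme Q, cytochrome c and electron transfer from fatty acid oxidation, had a peak at 15 of 16 genes (93.8%), among them Cycs (450 bp, rank 5854), and only Coq8b of this list had none. It also holds Cyc1 (700 bp, rank 9661), cytochrome c1, which is a core subunit of complex III and is no member because its symbol does not begin with Uqcr. The assembly factors outside the Nduf names had a peak at 26 of 36 genes (72.2%), with medians of 400 bp and rank 9827.5, a later rank than that of the members. The 12 regulators had a peak at 10 (83.3%), and these were long and ranked early, with medians of 1150 bp and 2097. Gabpb1 stood at rank 378, Pprc1 at 389, Yy1 at 437 with 2600 bp, and Tfam, the mitochondrial transcription factor, at 1640, while Ppargc1a and Tfb1m had no peak. The citric acid cycle had a peak at 10 of 13 genes (76.9%). Beside these shares stand 44.1% of all protein-coding genes and 80.4% of the CpG-rich ones. Start sites were CpG-rich at 15 of the 16 carriers, 28 of the 36 assembly factors, 10 of the 12 regulators and all 13 citric acid cycle genes.

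Beside 3 other groups of widely used genes, the members had a middle share with a peak. Their median length, 500 bp, was the shortest, and their median rank, 6969, was the last by a small margin. Ribosomal protein genes had a peak at 75 of 86 (87.2%), with medians of 800 bp and rank 4370. Mitochondrial ribosomal protein genes, with 56 of 78 (71.8%), 550 bp and 6689, were close to the members in all 3 values. Proteasome genes had a peak at 31 of 50 (62%), with 600 bp and 6911. The ranges of rank overlapped almost wholly, from 129 to 14382 in ribosomal, 511 to 14356 in mitochondrial ribosomal and 145 to 14739 in proteasome genes. The share of CpG-rich start sites, 72 of 86, 66 of 78 and 39 of 50 genes, was similar in these groups to the 71 of 93 of the members. With tissue-restricted isoforms and assembly factors left out, 55 of 75 members (73.3%) had a peak. Their median length was then 500 bp and their median rank 6722, which is earlier than that of proteasome genes.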

How the data were processed

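HDAC1 ChIP-seq libraries of E11.5 limb buds were aligned by the authors to mm10 (Bowtie2 2.2.5 per the submitters' processing notes), and peaks were called by them with CisGenome under a false discovery rate limit. The deposited file is 1 list of peak coordinates for all samples, without counts or signal, so this file allows no sample-level value, interval or test; the study's reads and per-peak values elsewhere were not used here. Coordinates were read as 1-based with both ends included.

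Genes and TSS came from the GENCODE M21 basic annotation, with genes joined by symbol and chromosome (the 93 members have 94 gene identifiers, since Atp5o has 2). The reference TSS is that of the best APPRIS principal transcript. Ribosomal genes exclude S6 kinases and pseudogenes. Motifs and composition were read from GRCm38.p6, and all promoters of the background were searched in the same window. The genes named are, for each complex, the best-ranked, longest and last peak, all members without or with more than 1 peak, the isoform sets, subunit c and the core of complex I; other members were named as examples after their values were seen. Results of 1 member and of 1 neighbouring gene are not reported here, but counts include them. Members, lists and settings were chosen with earlier results of these data known. Overlap calls were tested on simulated data with 1 TSS per gene and the alternative overlap of at least 200 bp. They matched a base-by-base count in 500 of 500 windows. The overlap of 1 bp behind the main counts was not tested in this way. Alternatives covered the TSS, the window, the overlap, the ranked list and shared peaks. Python 3.11.15, numpy 2.4.6 and matplotlib 3.10.9 were used.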

Additional observations from a re-analysis of the deposited data

How the results depend on the processing

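Of 85 values recomputed under alternatives, 68 stayed within 1.5 times the value reported. For the members and complexes this limit was applied to the count of genes, so a fall from 63 members to 43 stayed within it. Some of the 68 could not move, such as complexes II, III and V when complexes were set by known role. With 5 kb on both sides of the TSS, 64 members had a peak (68.8%, against 46.2% of all genes), and with 500 bp on both sides 62 (66.7%, against 42.7%). When a peak had to cover a TSS, 43 members (46.2%) and 32.8% of all genes had one, with 1 gene of complex II, then the lowest share (25%), and 3 of complex III. In the first part of the ranked list, cut at its middle, 36 members (38.7%) and 30% of all genes had a peak, with 17, 1, 2 and 5 genes in complexes I to IV, and complex V moved less, from 15 to 11. With shared peaks left out, 40 members had a peak, 18 of them in complex I and 1 in complex II. The share of members minus that of all genes ran from -19.4 to -1.2 percentage points at CpG-rich start sites over these settings, and from 11.3 to 38.6 at CpG-poor ones; leaving the tissue-restricted isoforms out of the members alone, against an unfiltered background, gave 58.4; the limits of CpG content and the use of all settings for it were added after seeing the data. The median length was 550 bp with peaks no more than 1000 bp apart merged, and the median rank 7591.5 without shared peaks. No paired analysis was possible because the peak list holds no value per sample. For the same reason no sample could be left out, and the depth behind a peak, and so the binding a missing peak could hide, is not known from the list.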
